A study of Rattus norvegicus with 6 samples.

Results

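The genes described here are Hmgcs1, Idi1, Fdps, Fdft1, Sqle, Lss, Cyp51 and Insig1, of which 7 enzymes make cholesterol and its precursors and Insig1 restrains the pathway. Each was taken as the probe set that carries its symbol alone, and where there were several, as the one with the highest mean over the 6 arrays. In this way 7 of the 8 were measured, among 14168 genes with such a probe set. Hmgcs1, the cytosolic HMG-CoA synthase, had no probe set under its symbol alone, so its expression is not analysed here. Insig1 had a second probe set, described below with the first.

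Tissue was the inner medulla of the kidney, taken from male Sprague-Dawley rats, with 2 arrays in each of 3 groups. In the withdrawal group, dDAVP had been infused under the skin from an osmotic minipump at 40 ng/h for 5 days, the pump was then taken out under light enflurane anaesthesia, and the tissue was taken 3 h later. The dDAVP group had the same 5-day infusion with no removal described. In the vehicle group the infusate was saline, 1 µl/h for 5 days. All rats had a fixed daily amount of standard diet and free access to water. dDAVP (desmopressin) is an analogue of the antidiuretic hormone vasopressin that acts on the V2 receptor of the collecting duct, where it raises cyclic AMP and the water channel aquaporin-2. The end of infusion and the removal of the pump under anaesthesia cannot be told apart in this design. The labels do not say that each array came from a separate animal, so p-values measure only the spread between these arrays, which may be technical.

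Cholesterol is built from acetyl-CoA through mevalonate, the isoprenoid diphosphates, squalene, and lanosterol. The enzymes of the route are switched on together by the transcription factor SREBP-2, which binds sterol regulatory elements beside NF-Y and Sp1 sites. When membrane sterol is plentiful, INSIG proteins hold the SREBP escort SCAP in the endoplasmic reticulum, and the route is shut down. Cells of the renal medulla live in a hyperosmotic interstitium, and cholesterol is a main lipid of their plasma membranes.

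Promoter windows of 4 genes are shown because, in the results that follow, these genes were low in the same 2 arrays. Each runs from 250 bases before the gene start to 50 bases after it, in RefSeq's GRCr8 build, which need not be the build of the array. The table held such a window for 6 of the 8 genes (Sqle and Fdft1 were not among them). Capitals mark a match to the NF-Y box (CCAAT), the Sp1 box (GGGCGG) or the core of the cyclic AMP response element (TGACG), on either strand.
Idi1 at chr17:66547475-66547774, minus strand: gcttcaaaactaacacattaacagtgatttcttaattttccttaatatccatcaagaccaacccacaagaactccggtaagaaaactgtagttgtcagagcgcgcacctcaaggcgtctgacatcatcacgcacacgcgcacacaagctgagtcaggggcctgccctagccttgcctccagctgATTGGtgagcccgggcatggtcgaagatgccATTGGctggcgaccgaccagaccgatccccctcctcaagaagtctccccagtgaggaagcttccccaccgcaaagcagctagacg
Fdps at chr2:176804767-176805066, minus strand: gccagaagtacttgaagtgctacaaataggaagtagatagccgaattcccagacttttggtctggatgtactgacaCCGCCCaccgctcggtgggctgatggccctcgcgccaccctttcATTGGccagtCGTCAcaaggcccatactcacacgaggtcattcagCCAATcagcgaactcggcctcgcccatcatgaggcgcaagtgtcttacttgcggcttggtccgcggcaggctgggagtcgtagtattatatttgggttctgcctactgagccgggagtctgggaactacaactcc
Cyp51 at chr4:30991443-30991742, plus strand: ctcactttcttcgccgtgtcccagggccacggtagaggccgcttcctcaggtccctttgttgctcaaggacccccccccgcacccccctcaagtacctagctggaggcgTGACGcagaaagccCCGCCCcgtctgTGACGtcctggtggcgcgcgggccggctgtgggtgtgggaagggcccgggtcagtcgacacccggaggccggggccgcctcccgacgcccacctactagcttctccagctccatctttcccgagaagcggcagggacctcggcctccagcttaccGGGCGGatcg
Insig1 at chr4:8057720-8058019, minus strand: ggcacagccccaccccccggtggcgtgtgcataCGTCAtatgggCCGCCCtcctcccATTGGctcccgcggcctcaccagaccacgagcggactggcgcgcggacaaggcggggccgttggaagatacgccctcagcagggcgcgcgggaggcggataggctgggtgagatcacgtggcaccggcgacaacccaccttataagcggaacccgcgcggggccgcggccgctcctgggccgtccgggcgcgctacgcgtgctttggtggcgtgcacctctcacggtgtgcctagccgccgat

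The 6 windows searched include that of Hmgcs1. The NF-Y box was found in 5 of the 6 windows (4 of the 5 of measured genes), against 38.4% of 19005 promoter windows of the same length. The Sp1 box was also found in 5 of the 6 (4 of the 5), against 43.1% of all windows. The cyclic AMP core was found in 3 of the 6, those of Fdps, Cyp51 and Insig1, against 24.2% of all windows. The Idi1 window holds the NF-Y box at 2 places and neither of the other motifs. The Cyp51 window holds the Sp1 box and the cyclic AMP core, at 2 places each, and no NF-Y box. The sterol regulatory element, searched as TCACNCCAC on both strands, was in none of the 6 windows and in 1.06% of all windows, so these letters are not in these stretches. None of the motifs searched overlap one another in these 4 windows.

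The arrays give one RMA intensity per probe set, and levels below are log2 of that intensity. The median intensity of an array was 181 and 182 in the withdrawal arrays, 156 and 165 under dDAVP, and 175 and 182 under vehicle. The number of arrays limits the precision. Aqp2, the water channel of principal cells, was between 13.14 and 13.40 in all 6 arrays, so this collecting duct marker was high in each. Thick ascending limb markers lay between 9.11 and 11.18. Among proximal tubule markers the highest level was 7.64, and among hepatocyte markers it was 7.07. The levels of the 7 genes lay between 7.93 and 11.48. Over all genes, vehicle replicate 1 and dDAVP replicate 2 deviated from their group means in a like way (same-numbered dDAVP and vehicle arrays had a correlation of -0.62 between their deviations), and the main differences and medians are also given without them.

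None of the 7 genes passed the test in any comparison. The clearest pattern was within groups: vehicle replicate 1 and dDAVP replicate 2 were the 2 lowest of the 6 arrays for Idi1, Fdps, Fdft1, Sqle, Cyp51 and Insig1, an order that 12.7% of all genes had. Both withdrawal arrays lay above both dDAVP arrays for Idi1, Fdps, Fdft1, Sqle and Insig1, as they did in 49.6% of all genes. Between withdrawal and vehicle every one of the 7 genes overlapped, as it did between dDAVP and vehicle. The plot of the values in each array shows these patterns gene by gene.

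**Figure D1:**
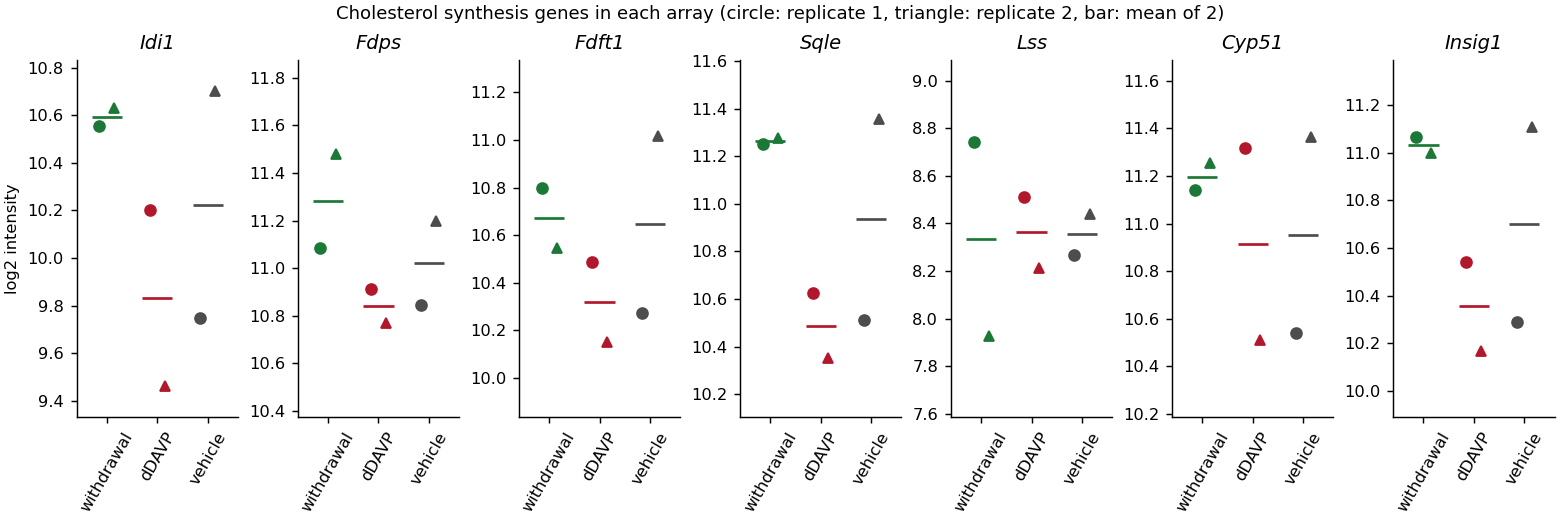
log2 intensity (vertical axis, a separate scale for each gene) of the 7 measured genes in the withdrawal, dDAVP and vehicle groups; circles are replicate 1, triangles replicate 2, and the bar is the mean of the 2 arrays. The withdrawal arrays of Sqle, at 11.25 and 11.28, lie above the dDAVP arrays, at 10.62 and 10.35, while the vehicle arrays, at 10.51 and 11.36, span both.

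Idi1, which interconverts the 5-carbon isoprenoid units, had log2 intensities of 10.55 and 10.63 in the withdrawal arrays, 10.20 and 9.46 under dDAVP, and 9.75 and 10.70 under vehicle. The withdrawal arrays were close to each other and to vehicle replicate 2, and dDAVP replicate 2 was the lowest. The difference of withdrawal from dDAVP was 0.76 ± 0.35 on the log2 scale (SE, n = 2 arrays each), which is 1.69-fold, with a 95% confidence interval from -0.10 to 1.62 and an adjusted p of 0.278 (limma). The difference of dDAVP from vehicle was -0.39 ± 0.35, smaller than the gap of 0.95 between the vehicle replicates.

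Fdps, the farnesyl diphosphate synthase that feeds both sterols and protein prenylation, stood at 11.08 and 11.48 in the withdrawal arrays, at 10.91 and 10.77 under dDAVP, and at 10.85 and 11.20 under vehicle. Its 6 arrays spanned 0.71, the least of the 7 genes, and the withdrawal arrays were above the dDAVP arrays without overlap. Withdrawal exceeded dDAVP by 0.44 ± 0.18 on the log2 scale, 1.36-fold (95% interval 0.01 to 0.87, unadjusted p = 0.0469, adjusted p = 0.261, limma).

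Fdft1, the squalene synthase that commits the route to sterols, measured 10.80 and 10.55 in the withdrawal arrays, 10.49 and 10.15 under dDAVP, and 10.27 and 11.02 under vehicle. Here the lower withdrawal array was close to the higher dDAVP array, and vehicle replicate 2 was the highest of all 6. The withdrawal mean of 10.67 ± 0.18 (SD, n = 2) was nearly that of vehicle, 10.65 ± 0.53, with a difference of 0.03 ± 0.26 (SE) and a 95% interval from -0.60 to 0.65. Against dDAVP the difference was 0.35 ± 0.26 (adjusted p = 0.422, limma), and 0.19 without vehicle replicate 1 and dDAVP replicate 2.

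Sqle, the squalene epoxidase that makes the first oxygenated intermediate of the sterol branch, had the largest difference of the 7 between withdrawal and dDAVP. Its withdrawal arrays, 11.25 and 11.28, were 0.03 apart, its dDAVP arrays stood at 10.62 and 10.35, and its vehicle arrays stood at 10.51 and 11.36. The difference of withdrawal from dDAVP was 0.78 ± 0.27, which is 1.71-fold (95% interval 0.13 to 1.42, unadjusted p = 0.0256, adjusted p = 0.260, limma). It was 0.64 without vehicle replicate 1 and dDAVP replicate 2. The difference of dDAVP from vehicle was -0.45 ± 0.27 (95% interval -1.09 to 0.20, adjusted p = 0.552, limma), and vehicle replicate 1 lay between the dDAVP arrays.

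Lss, the synthase that folds oxidosqualene into lanosterol, followed another order. Its log2 intensity was 8.74 and 7.93 in the withdrawal arrays, 8.51 and 8.21 under dDAVP, and 8.27 and 8.44 under vehicle. The highest and the lowest of the 6 arrays were the 2 withdrawal arrays, and the group means differed by 0.03 or less. The 95% interval of withdrawal minus dDAVP reached from -0.67 to 0.62, so differences of up to that size in either direction lay within the error of these arrays.

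Cyp51, the lanosterol demethylase, was at 11.14 and 11.25 in the withdrawal arrays, at 11.32 and 10.51 under dDAVP, and at 10.54 and 11.36 under vehicle. One array each of dDAVP and vehicle was high and the other low, with the withdrawal arrays just under the high pair. The difference of withdrawal from dDAVP was 0.28 ± 0.34 (adjusted p = 0.618, limma), and it was -0.12 without vehicle replicate 1 and dDAVP replicate 2. The difference of dDAVP from vehicle was -0.04 ± 0.34, and 0.08 once each array's median was subtracted.

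Insig1, itself a target of SREBP and the brake on the route, read 11.07 and 11.00 in the withdrawal arrays, 10.54 and 10.17 under dDAVP, and 10.29 and 11.11 under vehicle. Withdrawal exceeded dDAVP by 0.68 ± 0.27 on the log2 scale, 1.60-fold (95% interval 0.02 to 1.33, unadjusted p = 0.0446, adjusted p = 0.260, limma). The second Insig1 probe set gave 9.94 and 9.55 in the withdrawal arrays, 9.38 and 8.96 under dDAVP, and 9.06 and 10.07 under vehicle. Both probe sets thus placed the withdrawal arrays above the dDAVP arrays and vehicle replicate 1 second lowest, and the second differed by 0.57 between withdrawal and dDAVP.

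**Figure D2:**
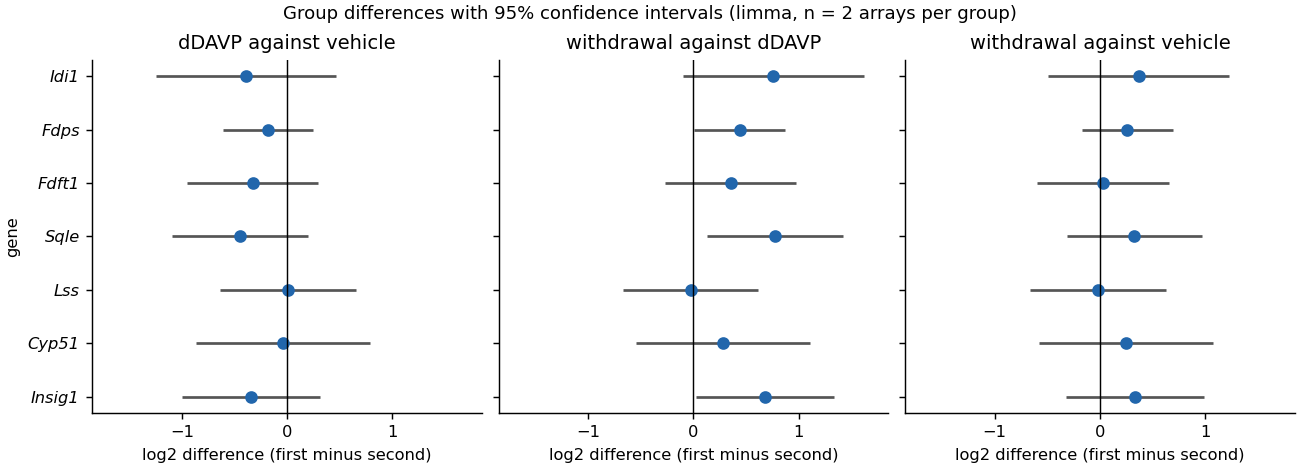
Differences of the 7 genes on the log2 scale (horizontal axis, first group minus second) in the 3 comparisons, with points for the estimate and bars for limma's 95% confidence interval, 2 arrays per group. The intervals of Sqle, Fdps and Insig1 lie above 0 for withdrawal against dDAVP before adjustment over all genes, and the intervals of all 7 genes include 0 in the other comparisons.

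The comparison of withdrawal with dDAVP asks what the tissue did in the hours after the infusion ended. The median difference of the 7 genes was 0.44 on the log2 scale, with 6 of 7 above 0, beside a median of 0.14 over all 14168 genes. None of the 7 passed at an adjusted p of 0.05 (limma), and 0% of all genes did. At an unadjusted p under 0.05, 3 of 7 were higher in withdrawal (Sqle, Fdps and Insig1), where 17.3% of all genes were. Both withdrawal arrays lay above both dDAVP arrays for 5 of 7, where 49.6% of all genes had that order, and none of the 7 had the opposite order, which 8.06% of all genes showed. An order without overlap was thus common among genes at large. With each array's median subtracted, which takes out the shift of all genes, the median of the 7 was 0.32 and 6 of 7 stayed above 0. Of the 7, 1 gene, Sqle, then had an unadjusted p under 0.05 (limma). In either direction 1266 of all 14168 genes had such a p. The median of the 7 was 0.43 after cyclic loess and 0.42 after quantile normalization, with 6 of 7 above 0 in each. An unadjusted p under 0.05 (limma) was found after loess for 3 of the 7 and for 922 of all genes. After quantile normalization it was found for 2 of the 7 and for 890 of all genes. With vehicle replicate 1 and dDAVP replicate 2 both left out, the median was 0.37 and 5 of 7 were above 0, with Sqle at 0.64, Idi1 at 0.39 and Insig1 at 0.49. The count at an unadjusted p under 0.05 was 0 without dDAVP replicate 2 alone or without withdrawal replicate 2 alone. In whole tissue, fewer cells of a type and less RNA per cell cannot be told apart.

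The comparison of dDAVP with vehicle asks what the sustained infusion did. The median difference of the 7 genes was -0.33, with 6 of 7 below 0, beside -0.11 over all genes. With array medians subtracted it was -0.21, with 5 of 7 below 0. After cyclic loess it was -0.30 and after quantile normalization -0.29, with 6 of 7 below 0 in each. By limma 0 of 7 passed the adjusted threshold, as did 0% of all genes, and 0 of 7 had an unadjusted p under 0.05, where 7.43% of all genes did. None of the 7 was free of overlap, while in 40.6% of all genes both dDAVP arrays were below both vehicle arrays, and in 4.80% both were above. The value rested on which vehicle array was used. Without vehicle replicate 1, which leaves 1 vehicle array, the median was -0.70, beside -0.09 over all genes. Without vehicle replicate 2 it was 0.06, beside -0.14 over all genes. With both vehicle replicate 1 and dDAVP replicate 2 left out, 1 array against 1 remained, with a median of -0.50 and a difference of -0.73 for Sqle.

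The comparison of withdrawal with vehicle, which shares arrays with each of the others, gave a median of 0.26 for the 7 genes and 0.03 for all genes. The smallest adjusted p among the 7 was 0.995 (limma), and 0% of all genes passed. At an unadjusted p under 0.05 there were 0 of 7, against 1.79% of all genes. None of the 7 was free of overlap, whereas both withdrawal arrays were above both vehicle arrays in 17.6% of all genes and below both in 13.1%. The median was -0.10 without vehicle replicate 1, with or without dDAVP replicate 2, and 0.66 without vehicle replicate 2. Across the 3 groups together, limma's F-test passed 0 of the 7 and 0% of all genes, and at an unadjusted p under 0.05 it called 0 of the 7 and 8.64% of all genes.

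Spread between replicates was wide for these genes. The gap between the 2 arrays of a group had a median over the 7 genes of 0.11 in withdrawal, 0.33 in dDAVP and 0.82 in vehicle, beside 0.10, 0.13 and 0.15 over all genes. The pooled SD within groups had a median of 0.362 over the 7 genes and 0.115 over all genes, and each of the 7 lay between the 84.3 and the 98.2 percentile of all genes. Vehicle replicate 2 exceeded vehicle replicate 1 by 1.5-fold or more in 5 of 7 (Idi1, Fdft1, Sqle, Cyp51 and Insig1), as it did in 2.19% of all genes. For Idi1 that ratio was 1.94 and for Sqle it was 1.79. Likewise dDAVP replicate 1 exceeded dDAVP replicate 2 by 1.5-fold or more in 2 of 7, Idi1 at 1.67-fold and Cyp51 at 1.75-fold, as it did in 2.33% of all genes. The withdrawal arrays were 1.5-fold or more apart for 1 of 7, Lss, at 1.76-fold, and for 2.29% of all genes.

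**Figure D3:**
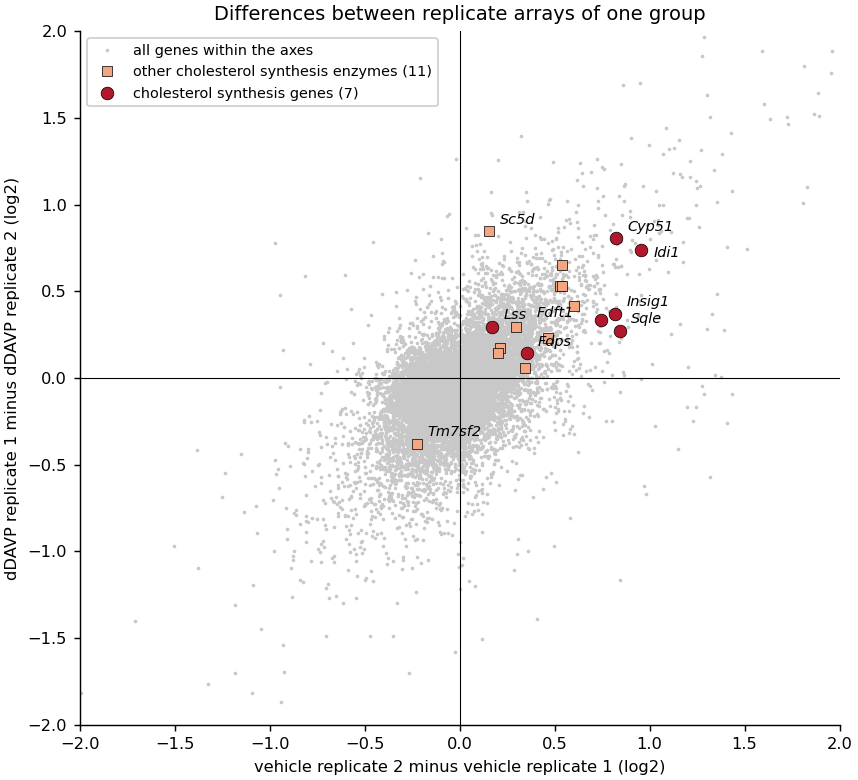
Difference between replicate arrays on the log2 scale, vehicle replicate 2 minus replicate 1 (horizontal) and dDAVP replicate 1 minus replicate 2 (vertical); grey points are all genes within the axes (27 lie beyond), circles the 7 cholesterol synthesis genes, squares the 11 other enzymes. All 7 circles lie above 0 on both axes, Idi1 at 0.95 and 0.74, and Tm7sf2 is the square below 0 on both.

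The genes kept a common order over the arrays. Vehicle replicate 1 and dDAVP replicate 2 were the 2 lowest of the 6 arrays for 6 of 7, Lss being the exception, against 12.7% of all genes. This order was chosen after its values were seen, so it is a description. After cyclic loess normalization of the arrays it was again found in 6 of 7, and in 15.4% of all genes. The opposite order, with those arrays the 2 highest, was found in 0 of 7 and in 10.9% of all genes. Averaged over the 7 genes, the deviation from a gene's own mean was 0.27 and 0.19 in the withdrawal arrays, -0.03 and -0.45 under dDAVP, and -0.33 and 0.35 under vehicle. Vehicle replicate 2 was thus the highest array, above both withdrawal arrays, and dDAVP replicate 2 the lowest, followed by vehicle replicate 1.

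Most of the 11 other enzymes of the route that were measured had the same 2 lowest arrays. Vehicle replicate 1 and dDAVP replicate 2 were the 2 lowest for 10 of 11, Tm7sf2, a sterol reductase, being the exception, against 12.7% of all genes. The median gap between the vehicle replicates was 0.35 for the 11, below the 0.82 of the 7 genes. Between the dDAVP replicates it was 0.38, beside 0.33 for the 7 genes. Between withdrawal and dDAVP the median was 0.18, with 8 of 11 above 0 and 0 with an unadjusted p under 0.05. Both withdrawal arrays were above both dDAVP arrays in 5 of 11, against 49.6% of all genes. That median was 0.06 with 7 of 11 above 0 once array medians were subtracted, and -0.01 without dDAVP replicate 2. After cyclic loess it was 0.12 and after quantile normalization 0.13, with 8 of 11 above 0 in each. Between dDAVP and vehicle the median was -0.09 with 9 of 11 below 0, but 4 of 11 were below 0 once array medians were subtracted. After cyclic loess, and likewise after quantile normalization, the median was -0.04 with 8 of 11 below 0. Leaving out vehicle replicate 1 gave -0.33, leaving out vehicle replicate 2 gave 0.03, and leaving out dDAVP replicate 2 gave 0.02. With vehicle replicate 1 and dDAVP replicate 2 both left out it was -0.12. Between withdrawal and vehicle the median was 0.07, with 10 of 11 above 0, but it was -0.14 with 1 of 11 above 0 without vehicle replicate 1, and 0.35 without vehicle replicate 2.

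Early in the route, Acat2, which joins 2 acetyl-CoA units, differed by 0.18 between withdrawal and dDAVP, mevalonate kinase Mvk by 0.08, and the decarboxylase Mvd by 0.37. Ggps1, which makes geranylgeranyl diphosphate on the side branch, differed by 0.16. Mvd had log2 intensities of 8.25 and 8.28 in the withdrawal arrays, 8.22 and 7.57 under dDAVP, and 7.87 and 8.40 under vehicle. Its dDAVP arrays were thus 0.65 apart, with the upper one next to the withdrawal arrays.

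After lanosterol, the methyl sterol oxidase Msmo1 stood at 11.65 and 11.68 in the withdrawal arrays, at 11.52 and 11.10 under dDAVP, and at 11.31 and 11.91 under vehicle. Of the 11 it alone had vehicle replicate 2 above replicate 1 by 1.5-fold or more, at 1.52-fold. Nsdhl and Hsd17b7, which act with it in removing methyl groups, differed by 0.24 and 0.22 between withdrawal and dDAVP. Of the last steps, the isomerase Ebp differed by -0.13, the desaturase Sc5d by -0.00, and the reductase Dhcr7 by 0.20. Sc5d had one high dDAVP array, at 11.06, with the other at 10.22, a ratio of 1.80. Tm7sf2 ran the other way, at 11.05 and 10.69 in the withdrawal arrays, 10.94 and 11.32 under dDAVP, and 11.39 and 11.16 under vehicle.

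**Figure D4:**
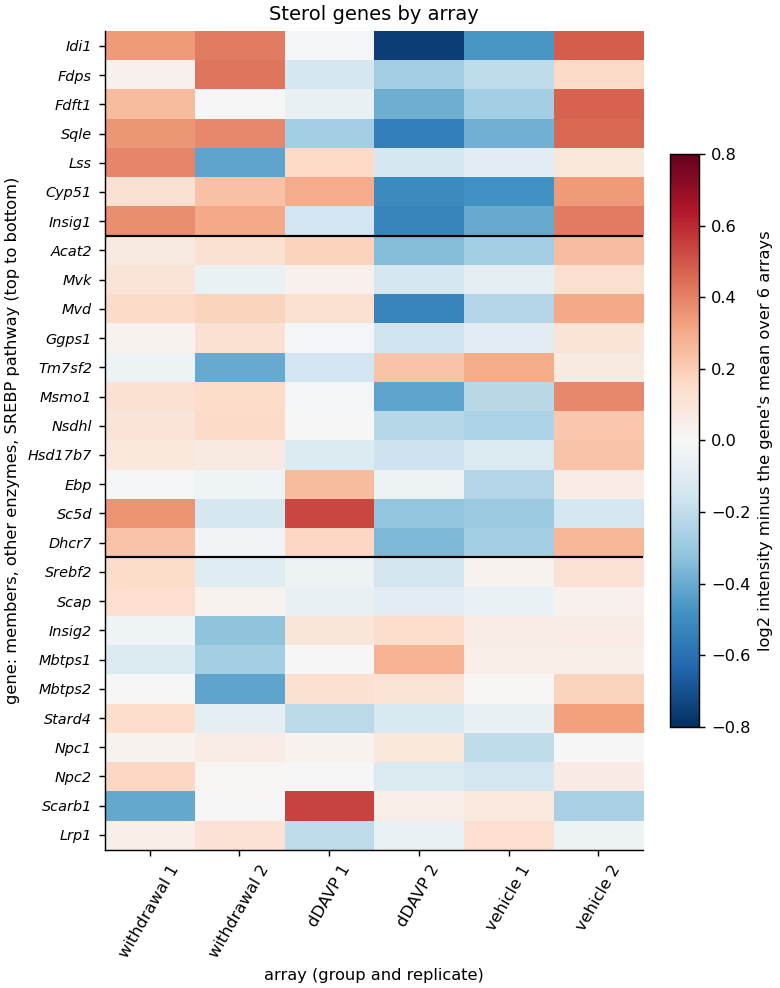
Deviation of log2 intensity from a gene's mean over the 6 arrays (colour, red above and blue below) for the 7 cholesterol synthesis genes, the 11 other enzymes and 10 genes of SREBP control and sterol uptake (rows), in the withdrawal, dDAVP and vehicle arrays (columns). dDAVP replicate 2 and vehicle replicate 1 are the 2 lowest arrays in 16 of the 18 rows above the second line, the exceptions being Lss and Tm7sf2. Those arrays are the 2 lowest in 1 of the 10 rows below that line, and in 12.7% of all genes.

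Among genes that control the route that order was about as frequent as among all genes. Of the 10 measured genes of SREBP control and sterol uptake, 1 had vehicle replicate 1 and dDAVP replicate 2 as its 2 lowest arrays. It was Npc2, a lysosomal cholesterol carrier. The share over all genes was 12.7%. Srebf2, which encodes SREBP-2, stood at 8.20 and 7.96 in the withdrawal arrays, at 8.01 and 7.91 under dDAVP, and at 8.08 and 8.17 under vehicle, so both dDAVP arrays were below both vehicle arrays and the withdrawal arrays overlapped each group. Scap, its escort, differed by 0.15 between withdrawal and dDAVP. The median of the 10 in that comparison was 0.05, with no gene passing the adjusted threshold (limma). In 4 of the 10 both withdrawal arrays were above both dDAVP arrays, against 49.6% of all genes, and in 4 others they were below both, against 8.06% of all genes.

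Insig2, the paralogue of Insig1, was at 11.18 and 10.89 in the withdrawal arrays, 11.30 and 11.35 under dDAVP, and 11.27 and 11.27 under vehicle. It differed by -0.29 ± 0.12 between withdrawal and dDAVP (unadjusted p = 0.0464, adjusted p = 0.261, limma), where Insig1 differed by 0.68. The SREBP protease gene Mbtps1 differed by -0.33 ± 0.12 (unadjusted p = 0.0353) and the second protease gene, Mbtps2, by -0.32. Scarb1, a lipoprotein receptor, differed by -0.50. The carriers Stard4, Npc1 and Npc2 differed by 0.20, -0.01 and 0.15, and the receptor Lrp1 by 0.21.

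Neighbouring lipid lists gave smaller medians than the 7 genes. Between withdrawal and dDAVP the median was 0.04 for sterol efflux, LXR and storage (10 of 10 measured), 0.19 for fatty acid synthesis (13 of 14) and 0.04 for the isoprenoid branch (8 of 10). Over all genes it was 0.14. At an unadjusted p under 0.05 (limma), 17.3% of all genes were higher in withdrawal, and 232 of 14168 were lower. Both withdrawal arrays lay above both dDAVP arrays in 49.6% of all genes. The genes named next were picked for the smallest unadjusted p of their list. Nr1h2, which encodes the sterol receptor LXR beta, was at 9.41 and 9.46 in the withdrawal arrays, at 9.92 and 9.74 under dDAVP, and at 9.56 and 9.46 under vehicle. It differed by -0.39 ± 0.10 between withdrawal and dDAVP (unadjusted p = 0.00854, adjusted p = 0.260, limma). Fasn, the fatty acid synthase, averaged 8.21 ± 0.03 in the withdrawal arrays, 7.84 ± 0.08 under dDAVP, and 8.04 ± 0.05 under vehicle (SD, n = 2 each). Its 3 groups did not overlap, with a difference of 0.38 ± 0.09 between withdrawal and dDAVP (unadjusted p = 0.00654, adjusted p = 0.260, limma). The stearoyl-CoA desaturase Scd differed by 0.31 in that comparison, Dhdds, which makes dolichol precursors, by 0.33, and Pdss2, of ubiquinone synthesis, by 0.35. Apoe, a carrier of exported sterol, differed by -0.46.

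**Figure D5:**
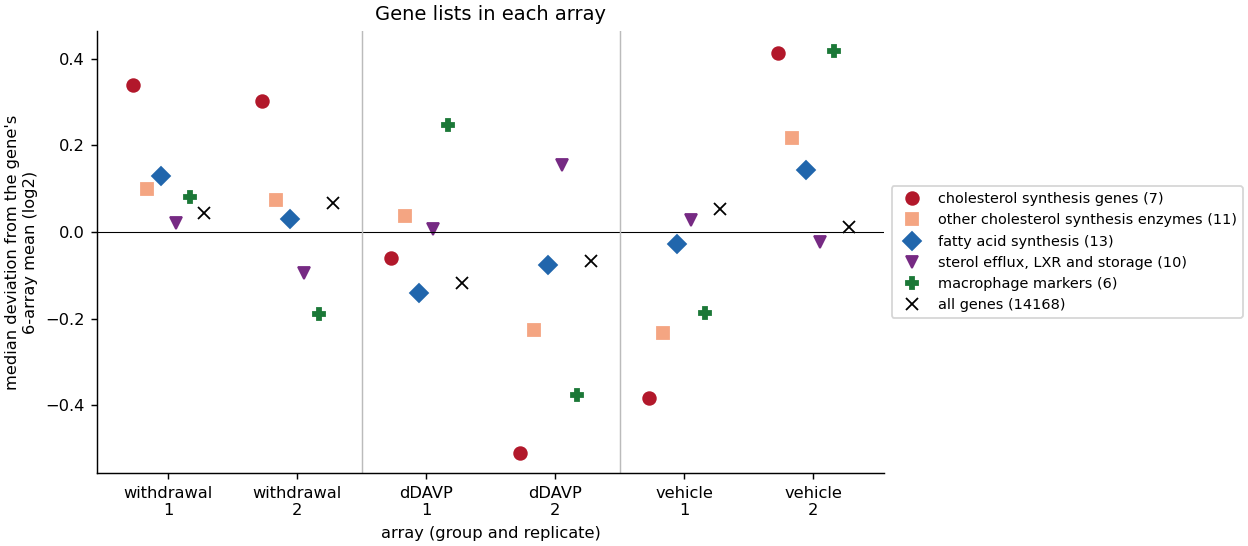
Median deviation from a gene's mean over the 6 arrays, on the log2 scale (vertical axis), for 6 sets of genes in the withdrawal, dDAVP and vehicle arrays (horizontal axis); the number of genes is in the legend. The 7 cholesterol synthesis genes stand at 0.34 and 0.30 in the withdrawal arrays, at -0.06 and -0.51 under dDAVP, and at -0.38 and 0.41 under vehicle, while all genes stay between -0.12 and 0.07.

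Markers of other cells moved with the low arrays in part. The summed linear intensity of 6 macrophage markers was 3704 and 3099 in the withdrawal arrays, 4039 and 2576 under dDAVP, and 2684 and 4316 under vehicle. Of these markers 3 of 6, Cd68, Adgre1 and C1qa, had the same 2 lowest arrays as the cholesterol genes, against 12.7% of all genes. Csf1r, Cd163 and Mrc1 did not. The summed intensity of the 7 cholesterol genes was 12720 and 13146 in the withdrawal arrays, 10525 and 7802 under dDAVP, and 8445 and 13905 under vehicle. Of 6 cycling-cell markers 5 were measured (Mki67 was not), and they summed to 2975 and 2653 in the withdrawal arrays, 1777 and 814 under dDAVP, and 994 and 2562 under vehicle. In 4 of the 5 these were the 2 lowest arrays as well. The 6 measured adipocyte markers summed to 2609 and 3320 in the withdrawal arrays, 2809 and 3827 under dDAVP, and 3257 and 3642 under vehicle. Markers of the medullary nephron itself were mixed. Thick ascending limb markers summed to 4492 and 2783 in the withdrawal arrays, 3303 and 4696 under dDAVP, and 2265 and 3993 under vehicle. Their sum was thus lowest in vehicle replicate 1 but highest in dDAVP replicate 2, and 1 of 3 had the same 2 lowest arrays. The 7 measured markers of collecting duct principal cells summed to 21644 to 25565 over the 6 arrays, with 2 of 7 lowest in the same 2 arrays. The 4 measured intercalated cell markers summed to 2886 and 1573 in the withdrawal arrays, 2587 and 1864 under dDAVP, and 1046 and 2690 under vehicle, with 0 of 4 in that order. Both measured thin limb markers, Slc14a2 and Cryab, had it, but Slc14a2 was also listed and counted among the principal cell markers. The thin limb list is thus not separate from that list. The part of these cells in the values of the cholesterol genes was not tested.

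The steroid-making genes Star, Cyp11a1, Cyp11b1, Cyp11b2 and Cyp21a1 of the adrenal cortex, a tissue rich in this route, were at most 7.46 in any array. The adrenal receptor gene Mc2r was between 8.08 and 9.20.

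The genes whose course over the 6 arrays was nearest to the mean course of the 7 were found by root mean square distance of centred log2 values. The nearest outside the list were Oma1 at 0.0507, Asf1b at 0.0592, Slc38a1 at 0.0666, Depdc1b at 0.0680 and Hist1h2bq at 0.0718, against a median distance of 0.301 over all genes outside the list. Of the 11 other enzymes, Msmo1 ranked 13 and Mvd 30 among the genes outside the list, Dhcr7, Nsdhl, Acat2, Hsd17b7 and Ggps1 ranked 114 to 956, and Mvk, Ebp, Sc5d and Tm7sf2 ranked 1339 to 13548. Of the 7 themselves, Insig1 was nearest to their common course at 0.0972 and Lss farthest at 0.329.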

How the data were processed

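Kidney inner medulla RNA was measured on 6 Affymetrix whole-transcript arrays, 3 groups of 2. The deposited table holds intensity values on a linear scale, 30.2 to 10779, which the authors made with RMA, per the submitters' processing notes. The RMA version is not given in the sources used here, nor is a genome build. For this report log2 was taken with no further scaling.

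Probe sets were named from GEO's platform annotation. Of 28524, 14947 had 1 symbol, 318 several and 13259 none. Through Entrez identifiers 14916 matched RefSeq and 0 symbols changed. For 509 genes with several probe sets, the one with the highest mean was kept.

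limma 3.58.1 in R 4.3.3 fitted 3 group means over all 6 arrays (3 residual degrees of freedom), two-sided, with Benjamini-Hochberg adjustment over 14168 genes and a threshold of 0.05. The script was tested on simulated data. The genes and lists were chosen with earlier results of these data known. The text names the 8 genes, all measured other enzymes and SREBP and uptake genes, up to 2 genes of each other lipid list with the smallest p, and the 5 nearest genes. Genes of the marker lists, and those named for an order of the arrays, were picked with their values in view.

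The replicate numbers were checked for pairing. The correlation of replicate 1 deviations from group means over genes was -0.11 for withdrawal with dDAVP, -0.00 for withdrawal with vehicle and -0.62 for dDAVP with vehicle, so the numbers do not pair the arrays. Alternatives were other normalizations, filters, probe set means, a variance trend, blocks and arrays left out. Scan dates are not used here, and some listed genes are not reported here.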

Additional observations from a re-analysis of the deposited data

How the results depend on the processing

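In every alternative run, 0 of the 7 genes passed the adjusted threshold in any comparison (limma). Among all genes 0 passed, with 2 exceptions. Without dDAVP replicate 1 the number was 2 in dDAVP against vehicle, 2 in withdrawal against dDAVP and 2 in the F-test (0 to 2 over the arrays left out in turn). With dDAVP replicate 2 paired to vehicle replicate 1 as a block, a pairing chosen after seeing the data, 43 genes passed, none of the 7 among them. With the replicate block the medians for dDAVP against vehicle, withdrawal against dDAVP, and withdrawal against vehicle were -0.33, 0.44 and 0.26, 0 genes passed, and genes with an unadjusted p under 0.05 numbered 490, 1518 and 128, against 1052, 2686 and 253 without it. Over all alternatives except that pairing, these counts ran from 379 to 1651, 773 to 3464 and 117 to 665, and 396 to 2105 for the F-test against 1224. Leaving out each array in turn, the median of the 7 ran over -0.70 to 0.0644 in dDAVP against vehicle, 0.37 to 0.69 in withdrawal against dDAVP, and -0.10 to 0.66 in withdrawal against vehicle. For dDAVP against vehicle, Idi1 ran from -0.87 to 0.0847, Fdft1 from -0.70 to 0.0473, Lss from -0.14 to 0.16, Cyp51 from -0.45 to 0.38 and Insig1 from -0.76 to 0.0644. For withdrawal against dDAVP, Lss ran from -0.43 to 0.38 and Cyp51 from -0.12 to 0.69, while Sqle (0.64 to 0.91), Idi1, Fdps, Fdft1 and Insig1 stayed above 0. For withdrawal against vehicle, Sqle ran from -0.0939 to 0.75, Idi1 from -0.11 to 0.84, Fdft1 from -0.35 to 0.40, Lss from -0.43 to 0.39, Cyp51 from -0.17 to 0.66 and Insig1 from -0.0775 to 0.74. Without vehicle replicate 1 and dDAVP replicate 2 together, Cyp51 was -0.12 for withdrawal against dDAVP. The median for withdrawal against vehicle was then -0.10, with Sqle -0.0939, Idi1 -0.11, Fdft1 -0.35, Cyp51 -0.17 and Insig1 -0.0775. With array medians subtracted, Cyp51 was 0.0801 for dDAVP against vehicle. Where an array was left out, its group's other array was assumed to vary like the other groups. The cause of these shifts was not tested. With 2 arrays a group the precision was low, and any difference within a printed interval is compatible with these arrays.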

Other observations

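Some genes ran opposite to the cholesterol synthesis genes over the arrays, with vehicle replicate 1 and dDAVP replicate 2 as their 2 highest arrays. Among the lists they were Nr1h3, Apoe, Mylip and Cyp27a1 of 10 genes of sterol efflux, LXR and storage, Coq2 and Rabggtb of 8 in the isoprenoid branch, Pecam1, Kdr and Tek of 5 endothelial markers, Lrp2 and Slc22a6 of 4 proximal tubule markers, Mbtps1 of 10 genes of SREBP control and uptake, and Tm7sf2 of 11 other enzymes, beside 10.9% of all genes. The order was found in 0 of 13 genes of fatty acid synthesis. It was also found in 0 of 7 principal cell, 0 of 4 intercalated cell, 0 of 3 thick ascending limb and 0 of 2 thin limb markers. The same held for 0 of 6 macrophage, 0 of 6 adipocyte, 0 of 6 adrenal cortex and 0 of 5 hepatocyte markers. Fibroblast markers had it in 0 of 4 and cycling-cell markers in 0 of 5. Nr1h3 encodes the sterol receptor LXR alpha. Apoe had log2 intensities of 10.12 and 10.03 in the withdrawal arrays, 10.33 and 10.73 under dDAVP, and 10.79 and 10.38 under vehicle, so both withdrawal arrays lay below the other 4. This order was singled out after the values were seen.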
